A study of Drosophila melanogaster with 6 samples.

Results

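The glutathione S-transferase (Gst) and UDP-glycosyltransferase (Ugt) genes of Drosophila melanogaster were followed across embryos of 3 genotypes. Members were the probe sets whose only gene symbol names a Gst of the delta (D), epsilon (E), omega (O), sigma (S) or theta (T) class, or a Ugt, which gave 69 of the 18952 probe sets on the array. These stood for 67 genes, 32 Gst and 35 Ugt. The zeta-class Gst genes were not members. The transcription factor Grainy head (Grh), which directs how the epidermis matures, was raised in one strain and mutated in another, and both were compared with wild type. RNA was taken from whole embryos at stage 16, when the epidermis lays down the larval cuticle.

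The grh overexpression embryos (genotype label 69B>grh overexpression) expressed grh under 69B, a GAL4 driver line that is active widely in the embryonic ectoderm. The grh mutant embryos carried the allele grhB37, and the wild type embryos were of strain w1118. There were 2 arrays for each genotype. No group carried the driver alone, the labels do not say how mutant embryos were separated from others, nor is a common background of the strains stated, so grh and strain background cannot be told apart as sources of a difference. The labels number the replicates without saying that they were separate embryo collections, so p-values measure the spread between these arrays, which may be technical.

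Gst enzymes join the tripeptide glutathione to reactive small molecules, which makes them soluble and ready for export. The delta and epsilon classes are the ones expanded in insects and are known for the breakdown of insecticides, while omega enzymes mainly reduce or exchange thiols. Ugt enzymes add a sugar to lipophilic molecules. Vertebrate enzymes of this family mostly use glucuronic acid, and insect ones mostly use glucose, on plant toxins, pigments and phenols of the cuticle.

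The grh probe set read 12.33 ± 0.08 in grh overexpression, 9.03 ± 0.02 on arrays with the grh mutant label and 7.41 ± 0.06 in wild type (log2 value, SD, n = 2 each). Because grh was higher, not lower, on those mutant arrays, and the labels do not say which part of the transcript the allele changes, this value does not check the mutant label. Replicate arrays differed by a median of 0.07 log2 units or less in each genotype over all tested rows, and the tested members by a median of 0.07. All 5 epidermis and cuticle markers and all 3 muscle markers were above the testing minimum in each genotype, as were elav and nSyb of neurons and mex1 of the midgut. The neuron marker brp and the midgut marker betaTry were dim in grh overexpression and wild type, the neuron marker futsch was dim in wild type, and the fat body genes Lsp2 and Fbp1 were dim in all 3 genotypes. For Act5C, the 3' minus the 5' control probe set, a measure of how intact and evenly labelled the RNA was, gave 2.74 ± 0.03 in grh overexpression and 2.20 ± 0.07 in grh mutant, against 2.74 ± 0.06 in wild type. The same measure gave 1.41 ± 0.11 in grh overexpression, 1.29 ± 0.03 in grh mutant and 1.44 ± 0.03 in wild type on another actin control. For GAPDH it gave 1.16 ± 0.09 in grh overexpression, 1.002 ± 0.04 in grh mutant and 0.98 ± 0.08 in wild type, and for eIF-4a 1.05 ± 0.08 in grh overexpression, 1.04 ± 0.14 in grh mutant and 1.08 ± 0.09 in wild type. The Act5C control thus had the widest gap between grh mutant and wild type of the 4. The part of these differences in the results below was not tested.

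A log2 value of 4 on at least 2 arrays was required for testing, and a genotype with both arrays under 4 is called dim. Of the 67 genes, 50 passed, 28 Gst and 22 Ugt. The 4 Gst genes that did not pass were GstD4, GstD6, GstD7 and GstE14, the last of which is needed in ecdysone-producing glands. The 13 Ugt genes that did not pass were Ugt35B1, Ugt35C1, Ugt35E1, Ugt36F1, Ugt37A1, Ugt37A2, Ugt37A3, Ugt37E1, Ugt49B2, Ugt302K1, Ugt303B1, Ugt303B2 and Ugt307A1. Values of these 17 genes lay between 2.27, the floor of the arrays, and 3.75. The closest to passing was Ugt307A1, at 2.34 and 2.52 in grh overexpression, 2.27 and 2.29 in grh mutant and 3.60 and 3.75 in wild type. Just inside lay Ugt302E1, with 4.09 and 4.12 in grh mutant, and GstD8, with 4.40 and 4.12 there.

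Some genes passed through 1 genotype alone, so that the direction of their change in that genotype was fixed by the filter. GstD11, GstO1 and Ugt50B3 passed through grh overexpression alone, GstD8, Ugt302E1 and Ugt35E2 through grh mutant alone, and GstE4 through wild type alone. Where 1 of the compared genotypes was dim, the fold is written as at least that against a log2 value of 4. Folds are otherwise from the fit of limma, a linear model with a spread shared between genes, and adjusted p-values (Benjamini-Hochberg) are over all 8632 tested rows.

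The first comparison asked how these genes differed between grh overexpression and wild type. Over all rows 80.1% were called in either direction and 89.6% had groups that did not overlap. Of the 28 tested Gst genes, 18 rose and 6 fell in grh overexpression, with a median log2 fold change of 0.55 against -0.08 over all tested rows. Across all rows, 36% were called higher and 44.1% lower, while the Gst genes stood at 64.3% and 21.4%. Without the 3 genes whose direction was fixed by the filter, 16 of 25 rose and 5 fell. By fitted value, 10 of the 28 Gst genes rose by 2-fold or more and 3 fell, against 13.1% and 8.27% of all rows. The 10 include GstD11 and GstO1, whose direction was fixed by the filter, and of the 3 GstE4 was likewise fixed and is bounded only at 1.90-fold. Of the 22 tested Ugt genes 10 rose and 8 fell, but 7 rose and 10 fell with array medians set equal, and 6 rose and 10 fell after quantile normalization, and their median of 0.03 turns to -0.02 with dim genes at their bound, so no direction is given for them as a family. Of the 10, Ugt35E2 and Ugt302E1 were dim in both genotypes.

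**Figure D1:**
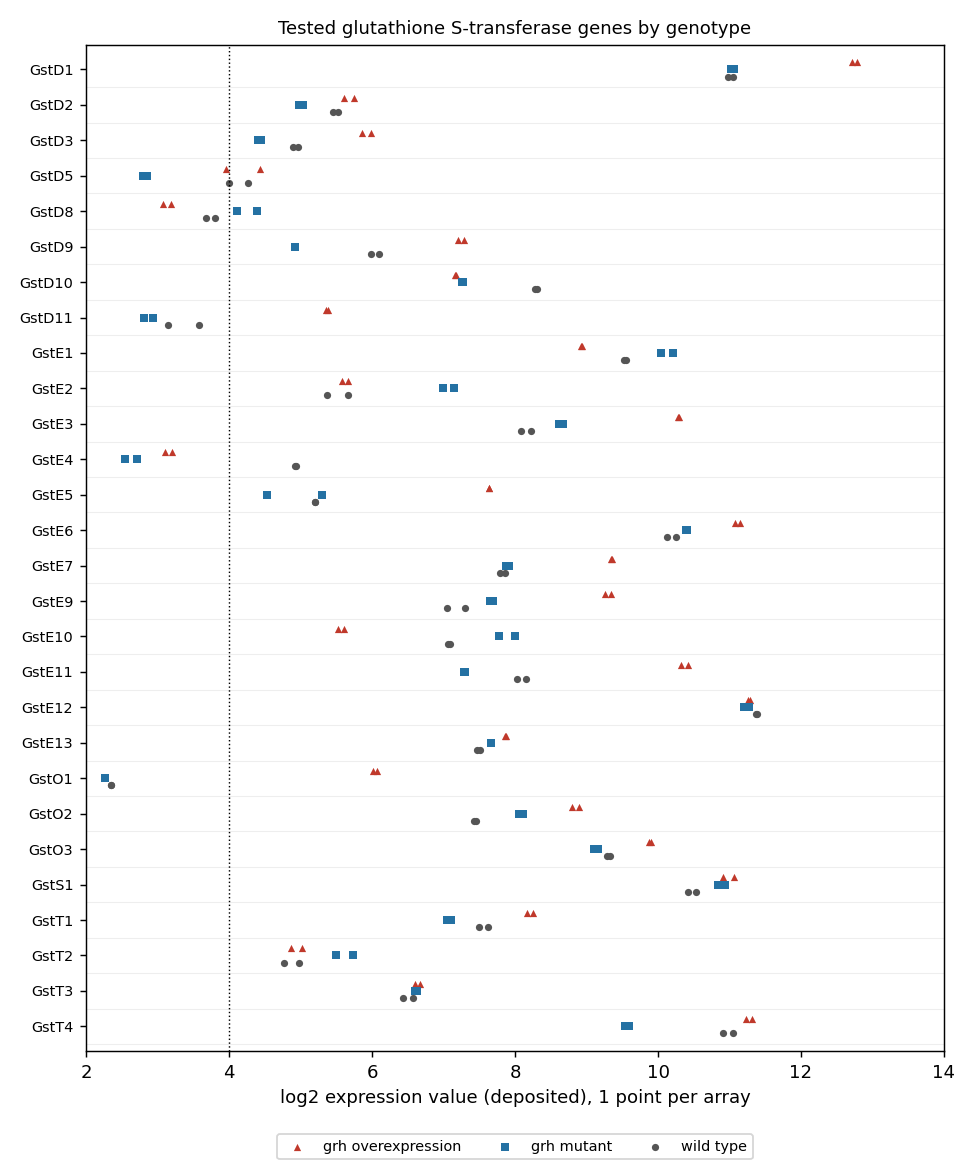
Log2 expression values of the 28 tested Gst genes (one gene per line) on each of the 6 arrays, with triangles for grh overexpression, squares for grh mutant and circles for wild type, and a dotted line at the value of 4 used for testing. In 17 of the genes both triangles lie to the right of the 4 other points, as for GstD1 and GstE11, against 31.4% of all rows. GstD11 and GstO1 are among the 17 and passed through grh overexpression alone, which fixed their pattern. Without them the count is 15 of 26.

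Delta-class genes gave 5 higher and 2 lower of 8 tested in grh overexpression. GstD1, a delta enzyme that breaks down DDT and whose promoter is a common reporter of oxidative stress in the fly, read 12.78 and 12.71 in grh overexpression, 11.06 and 11.03 in grh mutant and 11.05 and 10.98 in wild type. It was thus 3.32-fold higher in grh overexpression than in wild type (log2 fold change 1.73, SE 0.04, adjusted p = 5.70e-12), while grh mutant and wild type arrays overlapped. GstD9 read 7.29 and 7.21 in grh overexpression, 4.92 and 4.93 in grh mutant and 6.09 and 5.98 in wild type. No arrays of different genotypes overlapped for it, and it was 2.31-fold higher than wild type in grh overexpression and 2.16-fold lower in grh mutant.

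GstD10 had a different order, with 7.17 on both grh overexpression arrays, 7.27 and 7.26 in grh mutant and 8.30 and 8.27 in wild type. It was the delta gene that was highest in wild type, 2.18-fold lower in grh overexpression (adjusted p = 2.94e-09) and 2.03-fold lower in grh mutant (adjusted p = 9.38e-09). GstD11 read 5.35 and 5.38 in grh overexpression, 2.93 and 2.81 in grh mutant and 3.59 and 3.14 in wild type. Being dim in the other genotypes, it was at least 2.58-fold higher in grh overexpression than in each. GstD8, dim in grh overexpression and wild type, was the other delta gene called lower (fitted log2 fold change -0.61). GstD3 rose by 0.99 log2 units. GstD2 rose by 0.20 with an adjusted p of 0.0381, a call lost under 10 of the 16 other settings tried.

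Epsilon-class genes split into genes that rose strongly and genes that fell in grh overexpression, with 7 higher and 4 lower of 12. GstE11 read 10.43 and 10.32 in grh overexpression, 7.31 and 7.28 in grh mutant and 8.15 and 8.03 in wild type. It was 4.86-fold higher in grh overexpression than in wild type (log2 fold change 2.28, SE 0.06, adjusted p = 1.23e-11) and 1.73-fold lower in grh mutant. GstE3 read 10.29 and 10.28 in grh overexpression, 8.67 and 8.62 in grh mutant and 8.22 and 8.09 in wild type. That made it 4.39-fold higher than wild type in grh overexpression and 1.41-fold higher in grh mutant.

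GstE9 behaved much like GstE3, with 9.34 and 9.26 in grh overexpression, 7.70 and 7.65 in grh mutant and 7.30 and 7.04 in wild type, a 4.38-fold rise in grh overexpression. Its other probe set was dim on all 6 arrays, with 2.79 and 2.97 in grh overexpression and 2.30 to 2.40 elsewhere. GstE5 read 7.64 on both grh overexpression arrays, 5.30 and 4.53 in grh mutant and 5.21 and 5.20 in wild type. It was 5.42-fold higher in grh overexpression, and its grh mutant arrays lay on both sides of wild type, with the widest replicate gap of any tested member. GstE7 read 9.34 and 9.35 in grh overexpression, 7.92 and 7.87 in grh mutant and 7.85 and 7.79 in wild type, a 2.87-fold rise in grh overexpression. GstE6 rose 1.90-fold and GstE13 1.29-fold.

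GstE10 went the other way, at 5.53 and 5.61 in grh overexpression, 7.997 and 7.77 in grh mutant and 7.08 and 7.07 in wild type. It was 2.84-fold lower in grh overexpression (adjusted p = 6.72e-09) and 1.75-fold higher in grh mutant (adjusted p = 1.81e-06). GstE1, which can conjugate products of lipid peroxidation, showed the same order at smaller size, at log2 fold changes of -0.61 in grh overexpression and 0.58 in grh mutant. GstE4 read 3.10 and 3.20 in grh overexpression, 2.72 and 2.54 in grh mutant and 4.92 and 4.94 in wild type. Being measured in wild type alone, it was at least 1.90-fold lower in each altered genotype. GstE12 differed from wild type by -0.10 log2 units in grh overexpression, a call lost under 6 of the 16 other settings and whose sign turned after quantile normalization.

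All 3 omega genes rose in grh overexpression. The rise of GstO1 was fixed by the filter, since it passed through that genotype alone, which leaves GstO2 and GstO3. GstO1 read 6.08 and 6.02 in grh overexpression, 2.27 on both grh mutant arrays and 2.35 on both wild type arrays, close to or at the floor outside grh overexpression. It was at least 4.13-fold higher in grh overexpression (fitted log2 fold change 3.70, adjusted p = 2.47e-12). GstO2, an omega enzyme with thiol transferase activity, has a pair of probe sets. The first read 8.90 and 8.80 in grh overexpression, 8.12 and 8.05 in grh mutant and 7.45 and 7.43 in wild type. The second read 5.79 and 5.77 in grh overexpression, 5.99 and 6.08 in grh mutant and 4.67 on both wild type arrays. Both probe sets were therefore above wild type in both altered genotypes, with log2 fold changes of 1.41 and 1.11 in grh overexpression and 0.64 and 1.36 in grh mutant. They disagreed on grh overexpression against grh mutant, with 0.76 on the first and -0.25 on the second. GstO3 rose by 0.58 log2 units in grh overexpression. The omega relative sepia (se), which makes an eye pigment precursor, lies between these genes and stood at 2.27 on all 6 arrays.

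In the remaining classes the differences from wild type were smaller in grh overexpression. GstS1, the sole sigma gene, which acts on lipid peroxidation products, was 1.43-fold higher in grh overexpression and 1.33-fold higher in grh mutant. Its probe set has the suffix that marks sets able to match more than one transcript. Among theta genes, GstT1 rose 1.57-fold and GstT4 1.23-fold in grh overexpression, while GstT2 and GstT3 did not pass the test there, at 0.07 and 0.13 log2 units.

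The second comparison set grh mutant against wild type. Over all rows 80.9% were called in either direction and 90.3% had groups that did not overlap. The Gst genes were divided, with 11 higher and 12 lower of 28 and a median log2 fold change of -0.02, against 36.3% higher and 44.6% lower and a median of -0.07 over all rows. The delta class had 1 higher and 6 lower of 8, with a median of -0.50, or -0.30 with dim genes at their bound. Among the 6, GstD11 was dim in both genotypes and GstD5 in grh mutant, and the 1 higher, GstD8, was fixed by the filter. The epsilon class had 7 higher and 3 lower of 12 (median 0.19). Ugt genes had 13 higher and 3 lower of 22, which is 59.1% and 13.6%, with a median of 0.43, or 0.31 with dim genes at their bound. By fitted value, 4 Ugt genes rose by 2-fold or more and 1 fell, against 10.8% and 7.06% of all rows. Of the 4, Ugt35E2 and Ugt302E1 passed through grh mutant alone, and Ugt302E1 is bounded only at 1.07-fold, which leaves Ugt303B3 and Ugt36A1 measured in both genotypes. Without the 2 Ugt genes whose rise was fixed by the filter, 11 of 20 were higher and 3 lower.

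GstT4 read 11.32 and 11.23 in grh overexpression, 9.54 and 9.60 in grh mutant and 11.05 and 10.90 in wild type. Of the theta genes it stood out in grh mutant, 2.65-fold lower than wild type (log2 fold change -1.40, SE 0.05, adjusted p = 5.99e-10). GstE2 read 5.57 and 5.67 in grh overexpression, 7.14 and 6.99 in grh mutant and 5.67 and 5.37 in wild type. It was 2.92-fold higher in grh mutant (adjusted p = 5.29e-08), with grh overexpression and wild type arrays overlapping. GstD5 read 4.43 and 3.96 in grh overexpression, 2.85 and 2.80 in grh mutant and 4.26 and 3.996 in wild type. Dim in grh mutant and close to the testing minimum elsewhere, it was at least 1.09-fold lower there. GstT2 was 1.67-fold higher in grh mutant.

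**Figure D2:**
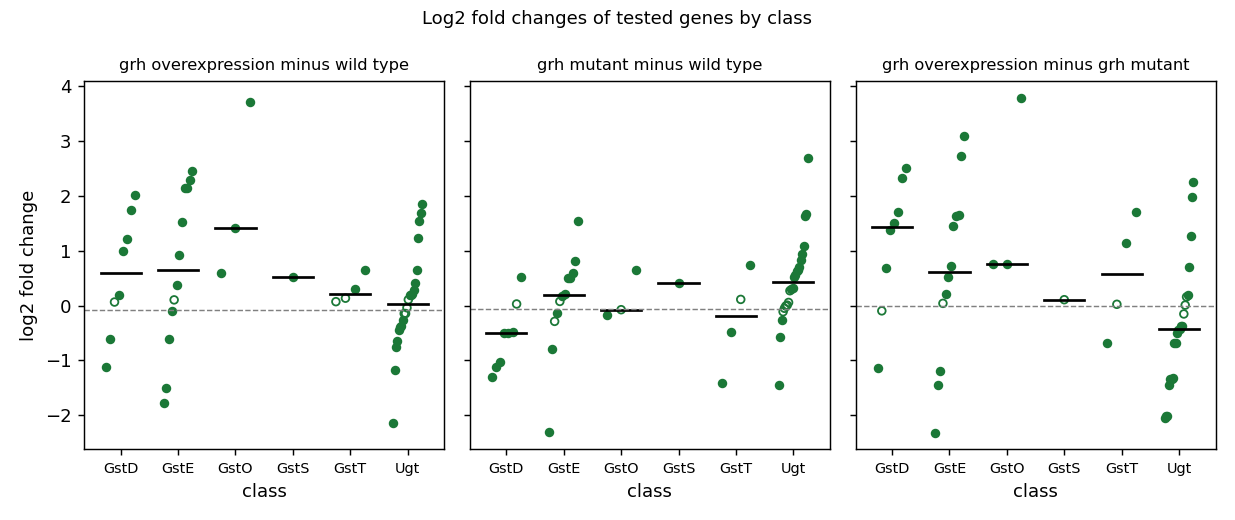
Log2 fold change (vertical axis) of each tested gene by class in the 3 comparisons, with filled points for genes called at an adjusted p under 0.05, open points for the others, a bar at the class median and a dashed line at the median of all 8632 rows. Fitted values are drawn for genes dim in a genotype, and the Ugt median is 0.03 in grh overexpression minus wild type, 0.43 in grh mutant minus wild type and -0.43 in grh overexpression minus grh mutant.

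Ugt genes higher in grh mutant came from several branches of the family. Ugt35E2 read 3.16 and 3.18 in grh overexpression, 5.20 and 5.22 in grh mutant and 2.49 and 2.56 in wild type. Measured in grh mutant alone, it was at least 2.32-fold higher there. Ugt303B3 read 4.63 and 4.67 in grh overexpression, 6.14 and 6.04 in grh mutant and 4.32 and 4.55 in wild type, a 3.16-fold rise in grh mutant (adjusted p = 1.42e-08). Ugt36A1, also named Dorothy and known from the driver line made with its regulatory DNA to mark pericardial cells, read 5.11 and 5.25 in grh overexpression, 7.32 and 7.04 in grh mutant and 5.52 and 5.57 in wild type. It was 3.10-fold higher in grh mutant and 1.29-fold lower in grh overexpression. Ugt302E1 was dim outside grh mutant, at 3.39 and 3.44 in grh overexpression and 3.20 and 2.83 in wild type, and was at least 1.07-fold higher in grh mutant.

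Other rises in grh mutant were 1.91-fold for Ugt35A1, 1.78-fold for Ugt36E1, 1.63-fold for Ugt317A1, 1.57-fold for Ugt49C1, 1.54-fold for Ugt301D1, 1.46-fold for Ugt37C2 and 1.44-fold for Ugt36D1. Ugt303A1 and Ugt305A1 rose by 0.33 and 0.29 log2 units. Only Ugt35D1, Ugt316A1 and Ugt37D1 were called lower among the tested Ugt genes.

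Ugt35D1 was highest in wild type, at 4.88 and 4.91 in grh overexpression, 5.55 and 5.61 in grh mutant and 7.003 and 7.05 in wild type. It fell in both altered genotypes, 4.38-fold in grh overexpression (log2 fold change -2.13, SE 0.07, adjusted p = 1.17e-10) and 2.72-fold in grh mutant (adjusted p = 5.37e-09). Ugt316A1 read 8.70 and 8.67 in grh overexpression, 6.46 and 6.41 in grh mutant and 7.08 and 6.93 in wild type. With no overlap between genotypes, it was 3.20-fold higher than wild type in grh overexpression and 1.49-fold lower in grh mutant, and it was the single tested Ugt gene with both grh mutant arrays below the 4 others, against 35.1% of all rows.

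Other Ugt genes rose mainly in grh overexpression. Ugt49B1 read 7.15 and 7.05 in grh overexpression, 5.27 and 4.99 in grh mutant and 5.24 and 5.25 in wild type, a 3.62-fold rise in grh overexpression (adjusted p = 5.18e-09), with grh mutant and wild type arrays overlapping. Ugt36D1 read 9.31 and 9.23 in grh overexpression, 8.60 and 8.54 in grh mutant and 8.06 and 8.03 in wild type, and was 2.34-fold higher in grh overexpression. Ugt50B3 read 4.82 and 5.39 in grh overexpression, 3.89 and 3.79 in grh mutant and 3.61 and 3.53 in wild type. It was at least 2.15-fold higher in grh overexpression, where its replicates differed more than in the other genotypes. Ugt36E1, the neighbour of Ugt36D1, read 4.21 and 4.16 in grh overexpression, 6.24 and 6.14 in grh mutant and 5.36 and 5.34 in wild type, 2.25-fold lower in grh overexpression. The probe sets of Ugt36E1, Ugt50B3 and Ugt37D1 carry the suffix of sets that can match more than one transcript.

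The remaining calls in grh overexpression were small. Ugt37C2 fell 1.70-fold, Ugt317A1 1.56-fold, Ugt37B1 1.36-fold, Ugt35A1 1.32-fold and Ugt37D1 1.20-fold. Ugt301D1 and Ugt303B3 rose by 0.19 and 0.22 log2 units, with adjusted p of 0.0413 and 0.0468, and each call was lost under 10 of the 16 other settings tried. Ugt37C1 and Ugt304A1 passed the test in none of the 3 comparisons, with the largest difference for Ugt37C1 being 0.16 log2 units between grh overexpression and grh mutant.

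**Figure D3:**
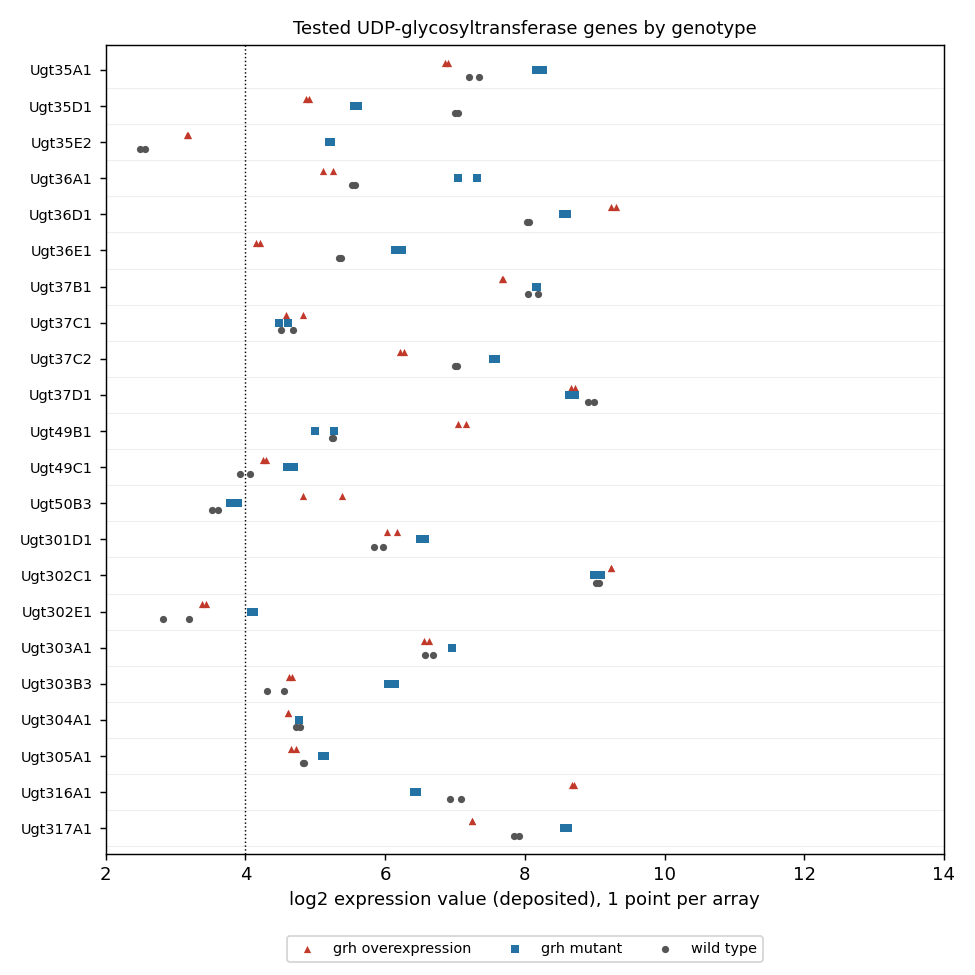
Log2 expression values of the 22 tested Ugt genes (one gene per line) on each of the 6 arrays, with triangles for grh overexpression, squares for grh mutant and circles for wild type, and a dotted line at 4. In 12 of the genes both squares lie to the right of the 4 other points, as for Ugt303B3 and Ugt36A1, against 32% of all rows. Ugt35E2 and Ugt302E1 are among the 12 and passed through grh mutant alone, which fixed their pattern. Without them the count is 10 of 20.

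The third comparison set grh overexpression directly against grh mutant, and the families parted there. Over all rows 86.6% were called in either direction and 93.5% had groups that did not overlap. Gst genes had 19 higher and 5 lower of 28 (67.9% and 17.9%, median log2 fold change 0.76), and Ugt genes had 5 higher and 14 lower of 22 (22.7% and 63.6%, median -0.43). Without the genes whose direction was fixed by the filter, 17 of 25 Gst genes were higher and 4 lower, and 4 of 19 Ugt genes were higher and 12 lower. Over all rows 42.9% were higher and 43.7% lower, with a median of -0.01. With array medians set equal, which moved the median of all rows to -0.13, the Gst genes had 18 higher and 7 lower and the Ugt genes 4 higher and 15 lower. GstE11 was 8.44-fold higher in grh overexpression than in grh mutant (adjusted p = 5.89e-13), GstE5 6.62-fold and GstD9 4.99-fold. GstE10 was 4.97-fold, Ugt36E1 4.01-fold and Ugt36A1 4.002-fold lower in grh overexpression, and Ugt316A1 4.77-fold higher.

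On single arrays, 17 of 28 Gst genes (60.7%) had both grh overexpression arrays above the 4 other arrays, against 31.4% of all rows, and 5 of 22 Ugt genes (22.7%) did. Of these, GstD11, GstO1 and Ugt50B3 passed through grh overexpression alone, so their pattern was fixed, and without them the counts were 15 of 26 Gst genes (57.7%) and 4 of 21 Ugt genes (19.0%). Both grh mutant arrays were above the 4 others in 5 Gst genes (17.9%) and 12 Ugt genes (54.5%), against 32% of all rows. Without GstD8, Ugt302E1 and Ugt35E2, which passed through grh mutant alone, the counts were 4 of 27 Gst genes (14.8%) and 10 of 20 Ugt genes (50.0%). Both wild type arrays were above the 4 others in GstD10, GstE4, GstE12, Ugt35D1 and Ugt37D1, where all rows gave 25%, and for GstE4 the filter fixed this.

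Many members lie side by side in the genome, which the choice of members did not use. In the RefSeq gene table of the Release 6 plus ISO1 MT assembly, 11 GstD genes, 10 GstE genes and 10 Ugt genes (Ugt35C1 to Ugt303A1) form the longest runs, allowing up to 2 other protein-coding genes between neighbours. Probe sets of such close relatives may share signal, so single values within a run are uncertain. Along the epsilon run, GstE10, GstE1 and GstE2 come first and were highest in grh mutant, at log2 fold changes against wild type of 0.81, 0.58 and 1.54 there and -1.50, -0.61 and 0.10 in grh overexpression. GstE3, GstE5, GstE6, GstE7 and GstE9 follow and were highest in grh overexpression, at 0.92 to 2.44 against wild type, and GstE4 among them was highest in wild type. GstE4 passed through wild type alone, so the filter fixed its place. GstE8, which lies between GstE7 and GstE9, had no probe set of its own on the array.

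Along the delta run, GstD9, GstD1, GstD2 and GstD3 are neighbours and were each highest in grh overexpression, and GstD11 at the far end was too. GstD10 before them was highest in wild type, and GstD8 beside the far end was highest in grh mutant, at 3.18 and 3.07 in grh overexpression, 4.40 and 4.12 in grh mutant and 3.67 and 3.81 in wild type. GstD11 passed through grh overexpression alone and GstD8 through grh mutant alone, so the filter fixed where each was highest. GstD5, also tested in this run, was lowest in grh mutant, with grh overexpression and wild type arrays overlapping. In the Ugt run, 6 of 10 genes were tested, and Ugt302E1, Ugt35E2, Ugt35A1 and Ugt303A1 were higher in grh mutant than in wild type. Of these, Ugt302E1 and Ugt35E2 entered the test by their grh mutant values alone, which left higher as the only direction open to them. The direction was free for Ugt35A1 and Ugt303A1. Over all rows 36.3% were called higher and 44.6% lower in this comparison. Ugt302C1 and Ugt304A1 in the same run differed by -0.01 and 0.01 log2 units between grh mutant and wild type and did not pass the test.

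**Figure D4:**
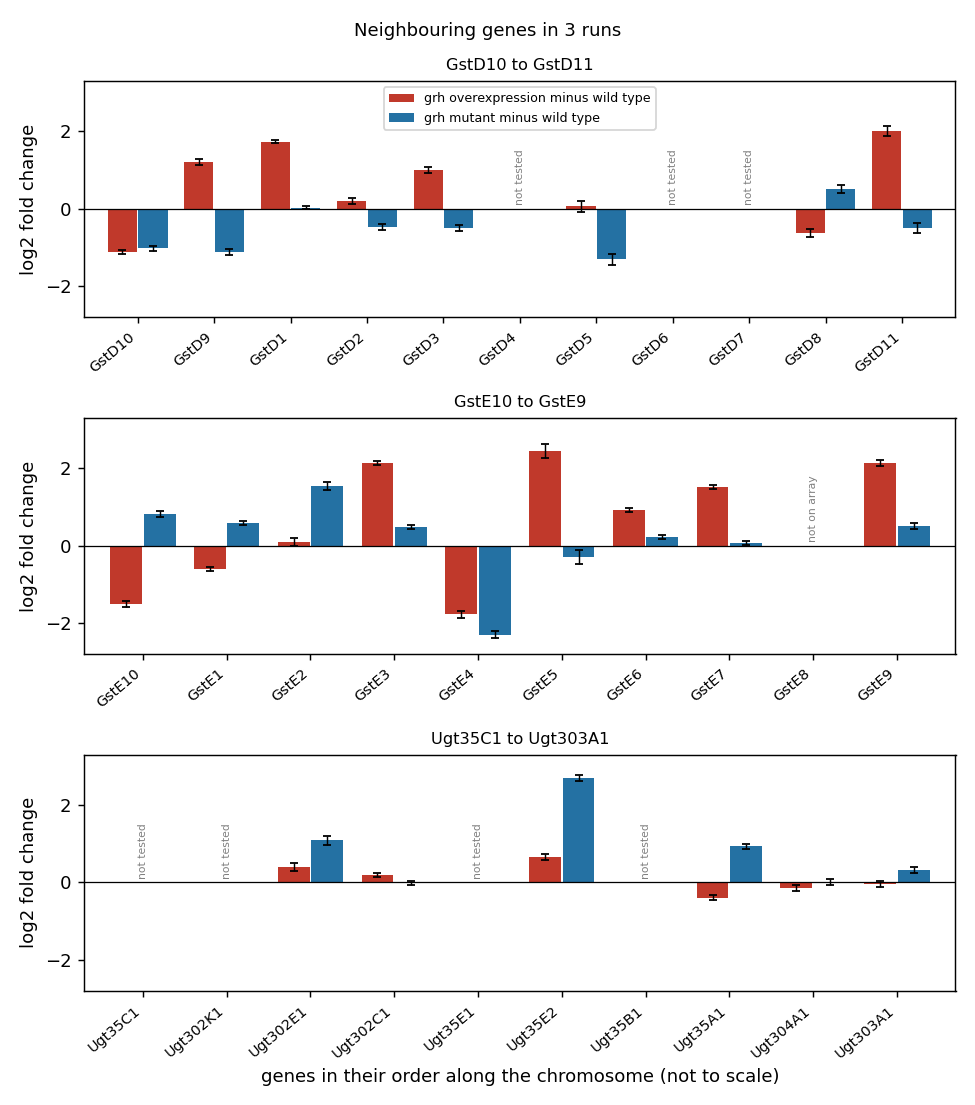
Fitted log2 fold change against wild type (vertical axis, error bars are SE; fitted values also for dim genes) for genes in their order along the longest runs, with grh overexpression left and grh mutant right in each pair. GstE10 and GstE1 point down in grh overexpression and up in grh mutant, while GstE3, GstE5, GstE6, GstE7 and GstE9 reach 0.92 to 2.44 in grh overexpression.

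Genes that feed or surround conjugation were described by lists chosen from general knowledge, with earlier results of these data known. For these lists and those below, all rows gave 36% higher and 44.1% lower in grh overexpression. In grh mutant all rows gave 36.3% higher and 44.6% lower. Of 8 tested genes for glutathione supply and thiol redox, 5 rose and 2 fell in grh overexpression, and 1 rose and 5 fell in grh mutant. Cbs, whose enzyme starts the route from homocysteine to cysteine, read 10.18 ± 0.05 in grh overexpression, 7.28 ± 0.00 in grh mutant and 8.68 ± 0.02 in wild type, 2.83-fold higher in grh overexpression and 2.64-fold lower in grh mutant. Gclc and Gclm, the catalytic and modifier subunits of the enzyme that starts glutathione synthesis, went opposite ways in both altered genotypes. Gclc was 1.65-fold higher in grh overexpression and 1.58-fold higher in grh mutant, and Gclm was 1.33-fold lower in grh overexpression and 1.87-fold lower in grh mutant. Trxr1 and Trx2, the thioredoxin system that stands in for glutathione reductase in flies, rose 1.58-fold and 1.71-fold in grh overexpression and fell 1.17-fold and 1.49-fold in grh mutant. Both glutathione synthetase genes share probe sets and were not named.

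All 4 tested relatives outside the chosen classes rose in grh overexpression. These were GstZ1 at 3.26-fold and GstZ2 at 2.27-fold, of a class that acts in tyrosine breakdown, gfzf at 2.74-fold, a zinc finger protein with a Gst domain, and the microsomal Mgstl at 1.42-fold. In grh mutant gfzf was 12.8-fold lower (adjusted p = 3.81e-13) and GstZ2, dim there, at least 2.73-fold lower.

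Of 6 tested regulators of these enzymes 5 fell in grh overexpression, and 3 rose and 2 fell in grh mutant. Those that fell in grh overexpression were cnc, the fly Nrf2 factor that switches on Gst genes under oxidative stress, (log2 fold change -0.34), its partner maf-S (-0.20), the xenobiotic receptor Hr96 (-0.58), and tgo and ss, the fly relatives of the dioxin receptor pair (-0.15 and -0.42). In grh mutant tgo was 1.74-fold higher (adjusted p = 5.95e-08), maf-S and Hr96 were lower (-0.33 and -0.24), and cnc did not pass the test at 0.05. The ss gene was dim in grh overexpression and wild type and at least 1.34-fold higher in grh mutant, through which alone it passed. Keap1, which holds cnc protein in check, was measured in grh mutant alone, at 4.60 ± 0.14. It read 3.61 ± 0.01 in grh overexpression and 3.65 ± 0.03 in wild type. Because Keap1 and ss reached the testing minimum in grh mutant only, neither could have been called lower there. Among the rises in grh mutant this leaves tgo, whose direction was free. The fall of ss in grh overexpression lay between means under that minimum, 3.24 there and 3.66 in wild type.

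Among the sulfotransferases, which conjugate sulfate to small molecules, and the efflux pumps, some genes showed larger changes in grh overexpression. All 4 sulfotransferases rose in grh overexpression, with St2 at 10.63 ± 0.01 in grh overexpression, 2.30 ± 0.00 in grh mutant and 4.43 ± 0.04 in wild type, 73.4-fold higher in grh overexpression. St4 was measured in grh overexpression alone, at 7.60 ± 0.13 against 2.28 in the others, and was at least 12.1-fold higher, while St3 rose 1.31-fold. St1 was at least 1.14-fold higher, and it too passed through grh overexpression alone. The rises of St1 and St4 were thus fixed by the filter, which leaves St2 and St3. Mdr49, a P-glycoprotein pump, was 10.6-fold higher in grh overexpression, at 8.72 ± 0.10 against 5.27 ± 0.05 in grh mutant and 5.32 ± 0.01 in wild type. Mdr65, a pump of the blood-brain barrier glia, was 2.11-fold lower in grh overexpression and 1.80-fold higher in grh mutant. MRP, which exports glutathione conjugates, was 1.98-fold higher in grh overexpression and 1.68-fold higher in grh mutant. The listed pumps Mrp4 and Mdr50 did not reach the testing minimum. For sugar donors, sgl, which makes UDP-glucuronate, rose by 0.25 log2 units in grh overexpression and fell by 0.13 in grh mutant, and UGP was dim on all arrays.

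**Figure D5:**
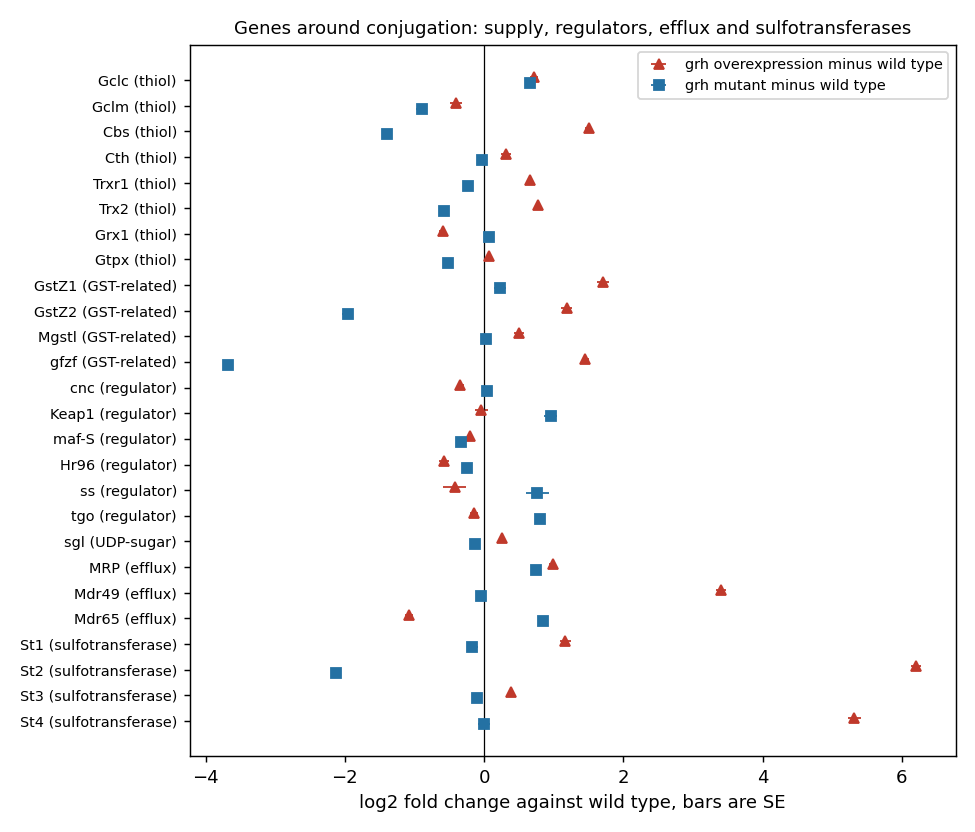
Fitted log2 fold change against wild type (horizontal axis, bars are SE) of the tested genes around conjugation, with triangles for grh overexpression and squares for grh mutant. St2 (6.20), St4 (5.32) and Mdr49 (3.40) lie farthest right in grh overexpression, and gfzf (-3.68) farthest left in grh mutant.

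Markers of many tissues moved on the same arrays, those known for high Gst and Ugt activity among them. In bulk embryos, fewer cells of a type and less RNA per cell cannot be told apart. Over all rows, 36% were higher and 44.1% lower in grh overexpression, and 36.3% and 44.6% in grh mutant. All 4 tested fat body markers fell in grh overexpression, with a summed level (log2 of the sum) of 12.40 on both grh overexpression arrays, 12.71 and 12.85 in grh mutant and 12.67 and 12.66 in wild type. Both tested oenocyte markers, Cyp4g1 and FASN3, fell there too, with summed levels of 6.72 on both grh overexpression arrays, 9.41 and 9.40 in grh mutant and 8.96 and 8.85 in wild type. Midgut markers gave 3 higher and 0 lower of 4 in grh overexpression and 3 higher and 1 lower in grh mutant, at 11.26 and 11.20 in grh overexpression, 10.49 and 10.47 in grh mutant and 10.79 and 10.72 in wild type. Of those higher in grh mutant, betaTry passed through that genotype alone, so its rise was fixed by the filter. A summed level mostly follows the brightest genes of its list, for midgut mex1, which was 1.49-fold lower in grh mutant. The Malpighian tubule markers Irk2 and Oatp58Dc fell in grh overexpression, while ZnT35C was not called (0.10 log2 units). In grh mutant Irk2 was 1.52-fold higher, ZnT35C 3.07-fold lower and Oatp58Dc not called (0.03 log2 units). Summed tubule levels were 7.51 and 7.43 in grh overexpression, 7.62 and 7.58 in grh mutant and 7.98 and 7.95 in wild type. Of 5 epidermis and cuticle markers 4 rose in grh overexpression, and 1 rose and 3 fell in grh mutant, at 13.77 and 13.75 in grh overexpression, 13.47 on both grh mutant arrays and 13.51 and 13.49 in wild type. Their sum mostly follows verm and serp, while Ddc, knk and kkv fell 2.74-fold, 2.83-fold and 1.47-fold in grh mutant. All 3 muscle markers fell in grh overexpression and rose in grh mutant, with summed levels of 11.65 and 11.70 in grh overexpression, 13.01 and 13.03 in grh mutant and 12.65 and 12.63 in wild type. Of 4 neuron markers 1 rose and 3 fell in grh overexpression and all 4 rose in grh mutant, at 7.78 and 7.89 in grh overexpression, 9.01 and 8.90 in grh mutant and 8.16 and 8.38 in wild type. The marker brp was dim in grh overexpression and wild type, so its rise in grh mutant was fixed by the filter. Of 5 hemocyte markers 1 rose and 4 fell in each altered genotype, at 9.12 and 9.09 in grh overexpression, 10.02 and 9.997 in grh mutant and 10.61 and 10.51 in wild type. The 1 that rose, Hml, was dim in grh overexpression and wild type, so its rise in grh mutant was fixed by the filter. Of the tracheal markers, btl fell in grh overexpression and pio rose in grh mutant. Not called were pio in grh overexpression (0.04 log2 units) and btl in grh mutant (-0.12 log2 units). The part of these markers in the changes of Gst and Ugt genes was not tested.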

How the data were processed

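Transcript levels of stage 16 embryos were measured on 6 1-colour arrays, 2 per genotype, grouped by the sample labels. The authors deposited 1 log2 value per probe set and array. The submitters' processing notes list GCRMA and MAS5, with no statement of what each did or its version. Inspection of the values showed a log2 scale with no per-gene centring. Scanner files were not used here, and no source used here names the genome build. Precision is limited by the small number of arrays.

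Names came from the platform annotation (13647 probe sets with 1 symbol, 402 with several, 4720 with none, 183 controls left out), and 13544 names were brought up to date by gene identifier from RefSeq. The brightest probe set by its mean stood for a gene, and unnamed probe sets stayed as rows. Of 17104 rows, 8632 reached 4 (log2) on 2 or more arrays. All 6 arrays entered one 3-group model in limma 3.58.1, run under R 4.3.3 (eBayes with an intensity trend, 3 residual and 7.93 prior degrees of freedom), without a replicate block. Rows were called at an adjusted p under 0.05, two-sided, and the code was tested on simulated data. Members with a called change of at least 1 log2 unit against wild type and no overlap of arrays have their values on every array printed, up to 8 per class and comparison, and some others were added after their values were seen. Alternatives were other filters, scalings, priors and sample sets. Members and lists were chosen with earlier results of these data known. An exact permutation of 2 arrays against 2 cannot pass the threshold and was not run. No sequences are shown, since none were in the tables used here.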

Additional observations from a re-analysis of the deposited data

How the results depend on the processing

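Gst and Ugt genes were refitted under 16 other settings. Of the single-gene results over the 3 comparisons, 2243 kept their side of the threshold, 106 lost the call, 25 gained it, and 2 changed sign while crossing it. Among the 2243, genes without a call could change sign. GstD1 did so in grh mutant minus wild type, from 0.03 log2 units to -0.007 without wild type replicate 2. GstE12 turned to 0.0205 log2 units in grh overexpression minus wild type after quantile normalization, and to -0.0823 in grh overexpression minus grh mutant with array medians set equal. Testing against a minimum fold of 1.5 (limma treat), which asks for larger changes by construction, accounted for 57 of the lost calls. It left 1487 rows higher and 1193 lower in grh overexpression minus wild type, 1340 and 1212 in grh mutant minus wild type, and 2056 and 2035 in grh overexpression minus grh mutant. For Gst genes it left 12 higher and 3 lower in grh overexpression minus wild type, and 2 higher and 6 lower in grh mutant minus wild type. In grh overexpression minus grh mutant it left 16 Gst genes higher and 4 lower. For Ugt genes it left 4 higher and 3 lower, 6 higher and 1 lower, and 3 higher and 7 lower in the same order of comparisons. Without a filter on low values, where 35 Ugt genes entered, 6 Ugt genes were higher and 8 lower in grh overexpression minus wild type. In grh mutant minus wild type 17 were then higher and 6 lower. After quantile normalization 6 Ugt genes were higher and 10 lower in grh overexpression minus wild type. The cause of these differences was not tested. Leaving out 1 array at a time gave 17 to 19 Gst and 7 to 9 Ugt genes higher in grh overexpression minus wild type, and 13 to 14 Ugt genes higher in grh mutant minus wild type. The replicate numbers are shared between genotypes, but the labels do not say that a number marks a shared batch. Differences between replicates 1 and 2 correlated at 0.14 to 0.24 between genotypes across rows. With the replicate block, 18 Gst genes were higher and 6 lower in grh overexpression minus wild type, and 1 call of a member was gained and none lost. Genes dim in a genotype have only a bound there, and 2 arrays per genotype limit the precision of each value.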
